A study of Mus musculus with 24 samples.

Results

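The heat-inducible chaperone genes described here, 10 in number, were measured in gastrocnemius muscle, a muscle of the calf. They were Hspa1a, Hspa1b, Hspa8, Hsph1, Hsp90aa1, Hsp90ab1, Dnajb1, Dnaja1, Bag3 and Hspd1. These 10 genes, out of 55385 in the count tables, were chosen by name from earlier results of these libraries, in which their response to Klotho in old and in oldest-old mice was known. Each symbol matched 1 gene identifier, and all 10 genes were among the 17803 that passed the filter on low counts. Values of the Klotho comparisons are therefore given as a description, without a test. Differences with age and between GFP and sham mice were tested, but the old and oldest-old GFP values entered the Klotho responses for which the genes were chosen, so only the comparison of young GFP with sham mice is independent of that choice.

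RNA was sequenced from 24 libraries in 6 groups of 4. Young GFP (3 to 6 months), old GFP (21 to 24 months) and oldest-old GFP (27 to 29 months) female C57BL/6J mice had received 3e+08 vector genomes of a serotype 8 adeno-associated virus (AAV) carrying enhanced green fluorescent protein through the tail vein, and muscle was taken 14 days later. Mice named old AAV-Kl, or oldest-old AAV-Kl, were of the same ages and received the corresponding vector with a codon-optimised murine Klotho sequence, carrying a secretion signal and an epitope tag. Expression in both vectors was driven by the liver-specific LP-1 promoter, so added Klotho would reach the muscle through the circulation. The paper reports raised serum Klotho with this vector in young females at other doses. Serum Klotho of the AAV-Kl mice sequenced here was not among the values used. The remaining group is labelled young Sham, and its strain, sex, age in months and procedure are not given in the sources used here. The 5 groups given a vector held 4 animals each, while nothing says whether the 4 sham libraries came from separate mice, so p-values there may measure technical spread only. The comparisons ask how the chaperone transcripts of muscle differ with Klotho at 2 advanced ages, and with age itself.

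Chaperones bind unfolded or newly made proteins and help them to fold, and in muscle they maintain the contractile apparatus under heat, exercise and mechanical strain. Heat shock factor 1 (HSF1), normally held inactive by chaperones, forms trimers when unfolded proteins accumulate and binds heat shock elements, repeats of the unit GAA in alternating orientation, upstream of chaperone genes. The proteins work in relays: J-domain proteins (Dnajb1, Dnaja1) deliver clients to the Hsp70 ATPases (Hspa1a, Hspa1b, Hspa8), exchange factors (Hsph1, Bag3) release them, and Hsp90 (Hsp90aa1, Hsp90ab1) completes the folding of kinases and receptors. Hspa1a, Hspa1b and Dnajb1 are the members known for a low resting level and a steep response to stress, whereas Hspa8 and Hsp90ab1 are abundant in unstressed cells.

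Hspa1a and Hspa1b stand next to each other on the minus strand of chromosome 17 (GRCm38), at chr17:34969190-34972156 and chr17:34956436-34959238, 9951 bases apart, and each is a single exon in GENCODE M21. Their promoters are printed because the transcripts of this pair differed most between AAV-Kl and GFP muscle. Those of Hsph1 and Hspd1 are printed because they hold at least 3 alternating units of the heat shock element. Sequences run from 250 bases before to 50 bases after the RefSeq start site (GRCm38.p6), 5′ to 3′ on the strand of the gene, and capitals mark matches to GAANNTTC or TTCNNGAA.

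Hspa1a, chr17:34972107-34972406, minus strand: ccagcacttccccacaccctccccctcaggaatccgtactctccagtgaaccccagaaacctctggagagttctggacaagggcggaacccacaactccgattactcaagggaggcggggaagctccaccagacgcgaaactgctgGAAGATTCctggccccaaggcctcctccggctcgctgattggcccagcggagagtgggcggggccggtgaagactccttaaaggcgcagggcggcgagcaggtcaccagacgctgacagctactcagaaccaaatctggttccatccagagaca
Hspa1b, chr17:34959189-34959488, minus strand: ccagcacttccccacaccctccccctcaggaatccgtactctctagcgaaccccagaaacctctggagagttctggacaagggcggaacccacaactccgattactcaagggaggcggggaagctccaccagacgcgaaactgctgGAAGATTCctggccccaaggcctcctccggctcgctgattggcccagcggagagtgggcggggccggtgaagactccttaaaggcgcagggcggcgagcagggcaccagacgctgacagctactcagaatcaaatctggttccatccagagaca
Hsph1, chr5:149636287-149636586, minus strand: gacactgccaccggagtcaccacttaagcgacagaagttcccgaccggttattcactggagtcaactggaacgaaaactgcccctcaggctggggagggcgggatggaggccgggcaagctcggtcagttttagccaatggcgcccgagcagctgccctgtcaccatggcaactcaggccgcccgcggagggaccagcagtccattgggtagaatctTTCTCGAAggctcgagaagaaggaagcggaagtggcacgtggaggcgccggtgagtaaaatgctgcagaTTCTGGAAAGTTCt
Hspd1, chr1:55087883-55088182, minus strand: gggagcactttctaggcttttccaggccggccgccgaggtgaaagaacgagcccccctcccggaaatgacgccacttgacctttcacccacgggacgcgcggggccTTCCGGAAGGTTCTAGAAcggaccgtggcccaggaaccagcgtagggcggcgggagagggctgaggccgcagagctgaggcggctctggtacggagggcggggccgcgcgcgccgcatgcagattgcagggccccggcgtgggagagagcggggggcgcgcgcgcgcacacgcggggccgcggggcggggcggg

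The Hspa1a and Hspa1b windows carried the same base at 296 of 300 positions, and both held GAANNTTC beginning 104 bases before the start site. In Hsph1, TTCNNGAA began 33 bases before the start site and again at base 37 of the transcript, where it overlapped GAANNTTC. In the printed Hspd1 window, TTCNNGAA began at -144 and -134 and overlapped GAANNTTC at -139. Another Hspd1 start site had its window at chr1:55088194-55088493, which held neither motif. RefSeq promoters were matched for 7 members, namely Hspa1a, Hspa1b, Hsph1, Bag3, Dnajb1, Dnaja1 and Hspd1, and 6 of these held at least 1 of the motifs, with Dnajb1 holding neither in its windows. Each motif reads the same on both strands. Across 27025 genes with a promoter, 9.04% held GAANNTTC, 9.60% held TTCNNGAA, 17% held either and 0.662% held at least 3 alternating units. A match describes letters only.

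The other members lie apart in the genome. Hspa8 is at chr9:40800984-40810087 on the plus strand, with 3 small nucleolar RNA genes within its exons, and Hsp90ab1 at chr17:45567775-45573271 on the minus strand. Hsph1 spans chr5:149614287-149636376 (minus), Hsp90aa1 chr12:110690605-110702728 (minus), Dnajb1 chr8:83608193-83612653 (plus), Dnaja1 chr4:40722150-40737149 (plus), Bag3 chr7:128523616-128546981 (plus) and Hspd1 chr1:55077835-55088243 (minus). Counting was without regard to strand, so reads from exons shared with a neighbour on the other strand, 564 bases of Hspa1a with Gm20481, 608 bases of Dnaja1 with Smu1, 249 bases of Dnaja1 with Gm6297 and 112 bases of Hspd1 with Hspe1, could not be told apart. Such ambiguous reads stayed out of the counts, so the levels of Hspa1a, Dnaja1 and Hspd1 may be too low. Of all 100-base stretches of the Hspa1a transcript, 47.1% also occurred in Hspa1b, and 49.9% of those of Hspa1b occurred in Hspa1a. Multimapping reads stayed out of the counts, so reads lying wholly in shared stretches were left out of both genes. The levels of both genes, and their sum, which is also given, may therefore be too low.

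Depth ran from 36415886 to 59733985 reads on genes in each library. Levels are given as CPM, the depth-scaled read counts of edgeR, with library sizes taken from reads on genes and scaled by TMM. The 12 skeletal muscle fiber markers, such as the creatine kinase Ckm and the actin Acta1, summed to 130425 to 196610 CPM across the libraries, and none was at 0. Transcripts of other tissues were uneven: keratinocyte markers summed to 427.9 CPM in young GFP replicate 3 and 136.6 in replicate 1 against a low of 3.67 within that group, and hepatocyte markers to 1145 CPM in old GFP replicate 1. In these bulk samples, fewer cells of a type and less RNA per cell cannot be told apart. Kl itself, whose own transcript the codon-optimised vector need not match, had 0 to 33 reads per library and no more than 9 in any AAV-Kl library.

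Means are given ± SD over 4 libraries. Per kilobase of annotated exon, the order of levels in young GFP muscle was Hsp90ab1 (406 ± 20.7 CPM per kb), Hspa8 (271 ± 26.2), Bag3 (78.2 ± 5.54), Hspd1 (64.9 ± 3.47), Hsp90aa1 (13.4 ± 1.83), Hsph1 (10.97 ± 1.34), Dnaja1 (4.87 ± 0.480), Dnajb1 (2.59 ± 0.407), Hspa1b (1.61 ± 0.552) and Hspa1a (0.977 ± 0.337). Neighbours in this order overlapped between libraries for Hsp90aa1 and Hsph1, for Dnajb1 and Hspa1b, and for Hspa1b and Hspa1a. Exon length was taken over all annotated transcripts, which understates genes with many of them, such as Dnaja1 with 8629 exonic bases. Hspa1a and Hspa1b may be understated as well, since reads common to both were left out. The order was the same in all groups except oldest-old AAV-Kl, where Dnajb1 (9.02 ± 9.03), Hspa1b (8.21 ± 9.72) and Hspa1a (5.61 ± 6.59) stood above Dnaja1 (4.65 ± 0.254). Without replicate 3 of that group the order of the means was that of the other groups, with Hspa1b (3.38 ± 1.24) and Hspa1a (2.33 ± 0.798) below Dnaja1 (4.65 ± 0.311). Dnajb1 (4.55 ± 1.59) was then almost level with Dnaja1, whereas in oldest-old GFP muscle it was at 2.57 ± 0.690 against 3.69 ± 0.721.

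**Figure D1:**
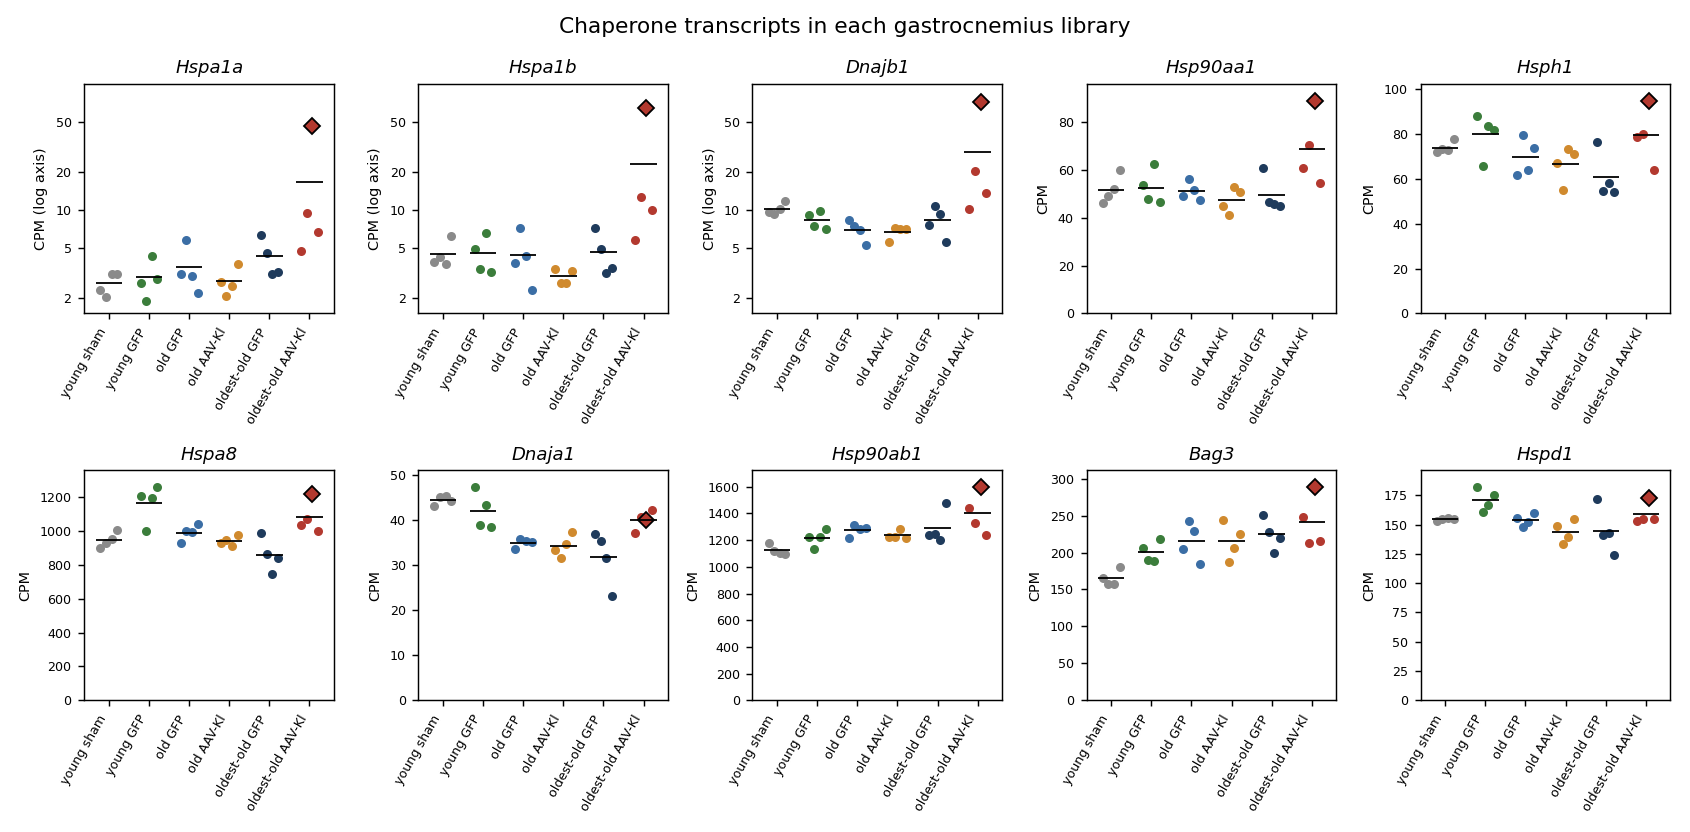
CPM of each gene (y axis, logarithmic for Hspa1a, Hspa1b and Dnajb1, from 0 for the others) in the 4 libraries of each of 6 groups; points are libraries, lines are group means, and the outlined diamond is oldest-old AAV-Kl replicate 3. That library lies at 45.8 CPM for Hspa1a, 63.7 for Hspa1b and 71.8 for Dnajb1, above all others, and in the middle of its group for Dnaja1.

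In oldest-old mice, all 10 chaperone transcripts had a higher fitted mean in AAV-Kl than in GFP muscle, and the stress-inducible Hsp70 and Hsp40 transcripts had by far the highest folds. The folds of Hspa1a, Hspa1b and Dnajb1 rested largely on 1 library, whereas Hspa8 and Dnaja1, with smaller differences, were higher in every AAV-Kl than in every GFP library, in Dnaja1 by a narrow margin and with a fold that fell without oldest-old GFP replicate 4. In old mice, 9 of the 10 had a lower fitted mean with AAV-Kl, and the groups overlapped for every member.

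Among the Hsp70 proteins, Hspa1a, the classical inducible form, was at 4.67, 9.39, 45.8 and 6.70 CPM in oldest-old AAV-Kl replicates 1 to 4. Its level in oldest-old GFP replicates 1 to 4 was 6.35, 4.54, 3.10 and 3.21 CPM. Replicate 3 of the AAV-Kl group stood far above the rest, and replicate 1 of that group lay inside the range of the GFP group. The fitted log2 fold change was 1.95 ± 0.52 (SE), or 3.87-fold, and was 0.69 ± 0.32 without that replicate. In old mice, Hspa1a was at 2.68, 2.07, 2.46 and 3.71 CPM with AAV-Kl and at 3.11, 5.73, 2.99 and 2.20 CPM with GFP. These groups overlapped, with a log2 fold change of -0.37 ± 0.52. The fit shares its estimate of spread over all groups, and this error was 0.31 without oldest-old AAV-Kl replicate 3.

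Hspa1b, its neighbour with nearly the same coding sequence, was at 5.78, 12.7, 63.7 and 9.94 CPM in oldest-old AAV-Kl replicates 1 to 4. In oldest-old GFP muscle it was at 7.15, 4.85, 3.12 and 3.44 CPM. As for Hspa1a, AAV-Kl replicate 3 was highest, replicates 2 and 4 stood above the whole GFP group, and replicate 1 fell within it. The log2 fold change was 2.31 ± 0.54 (4.95-fold), against 1.03 ± 0.34 without replicate 3. In old mice the values were 3.40, 2.61, 2.63 and 3.24 CPM with AAV-Kl and 3.76, 7.10, 4.31 and 2.31 CPM with GFP, a log2 fold change of -0.56 ± 0.54 with overlapping groups. Added together, Hspa1a and Hspa1b reached 10.5, 22.1, 109 and 16.6 CPM in oldest-old AAV-Kl replicates 1 to 4, and 6.22 to 13.5 CPM in oldest-old GFP libraries. The sum, which also lacks reads common to both genes, was likewise highest in AAV-Kl replicate 3 and overlapped the GFP group through replicate 1.

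Hspa8, the constitutive cytosolic Hsp70, was at 1038, 1073, 1221 and 998 CPM in oldest-old AAV-Kl replicates 1 to 4. Oldest-old GFP replicates 1 to 4 held 988, 866, 747 and 843 CPM. Each AAV-Kl library stood above each GFP library, although the lowest of the former and the highest of the latter were close. The log2 fold change was 0.33 ± 0.08 (1.26-fold), and 0.27 ± 0.08 without AAV-Kl replicate 3. In old mice, AAV-Kl libraries held 911 to 976 CPM and GFP libraries 928 to 1042 CPM, a log2 fold change of -0.07 ± 0.08.

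The exchange factors differed less. Hsph1, an Hsp110 that exchanges the nucleotide of Hsp70, was at 78.8, 79.8, 94.8 and 63.9 CPM in oldest-old AAV-Kl and at 76.5, 54.3, 58.3 and 53.9 CPM in oldest-old GFP replicates 1 to 4. Replicate 3 was again the highest, and the groups overlapped through AAV-Kl replicate 4 and GFP replicate 1, with a log2 fold change of 0.38 ± 0.13. Bag3, which links Hsp70 to small heat shock proteins and to the autophagic removal of damaged filamin at the Z-disc, was at 248, 213, 288 and 215 CPM in oldest-old AAV-Kl and at 251, 228, 199 and 220.2 CPM in oldest-old GFP replicates 1 to 4. The Bag3 groups overlapped over most of their range, with a log2 fold change of 0.10 ± 0.10, and 0.01 ± 0.10 without AAV-Kl replicate 3. In old mice, Hsph1 (-0.07 ± 0.13) and Bag3 (0.0044 ± 0.10) had log2 fold changes inside their errors.

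Of the J-domain proteins, the inducible Dnajb1 was at 10.1, 20.1, 71.8 and 13.5 CPM in oldest-old AAV-Kl replicates 1 to 4. Oldest-old GFP replicates 1 to 4 held 7.49, 10.6, 9.27 and 5.54 CPM. AAV-Kl replicate 3 was highest by far, and replicate 1 fell just below the highest GFP library, so the groups overlapped. The log2 fold change was 1.81 ± 0.40 (3.52-fold), and 0.83 ± 0.21 without replicate 3. In old mice the Dnajb1 values were 5.57, 7.17, 7.05 and 6.99 CPM with AAV-Kl and 8.23, 7.45, 6.91 and 5.22 CPM with GFP, a log2 fold change of -0.06 ± 0.40.

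Dnaja1, a farnesylated J-domain partner of Hspa8, had a different pattern. It was at 37.2, 40.7, 40.1 and 42.4 CPM in oldest-old AAV-Kl and at 37.0, 35.5, 31.6 and 23.1 CPM in oldest-old GFP replicates 1 to 4. The groups did not overlap, and AAV-Kl replicate 3 was in the middle of its group. The nearest libraries, AAV-Kl replicate 1 and GFP replicate 1, were almost level, and GFP replicate 4 was well below the rest. The log2 fold change of 0.33 ± 0.10 was 0.34 ± 0.11 without AAV-Kl replicate 3 and 0.21 without GFP replicate 4, whereas in old mice it was -0.03 ± 0.10. Oldest-old GFP replicate 4 also stood apart in tendon fibroblast markers (98.3 CPM, against 201 to 216 in the other libraries of its group), mitochondrial share (13.2% of reads, against 15.5% to 16.1%) and Fos (29.2 CPM, against 207 to 228), whose part in the Dnaja1 value was not tested.

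Hsp90aa1, the inducible cytosolic Hsp90, was at 60.7, 70.2, 88.8 and 54.2 CPM in oldest-old AAV-Kl and at 60.6, 46.3, 45.7 and 44.8 CPM in oldest-old GFP replicates 1 to 4. Only AAV-Kl replicate 4 fell below the highest GFP library, and the log2 fold change was 0.47 ± 0.14, or 0.33 ± 0.12 without AAV-Kl replicate 3. Hsp90ab1, its constitutive counterpart, was at 1444, 1331, 1596 and 1237 CPM with AAV-Kl and at 1235, 1246, 1204 and 1481 CPM with GFP. The Hsp90ab1 groups overlapped, with a log2 fold change of 0.12 ± 0.07. Hspd1, the mitochondrial Hsp60, was at 153, 154, 172 and 155 CPM with AAV-Kl and at 172, 141, 142 and 124 CPM with GFP, a log2 fold change of 0.13 ± 0.07 with overlapping groups. In old mice the log2 fold changes were -0.11 ± 0.14 for Hsp90aa1, -0.05 ± 0.07 for Hsp90ab1 and -0.10 ± 0.07 for Hspd1.

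**Figure D2:**
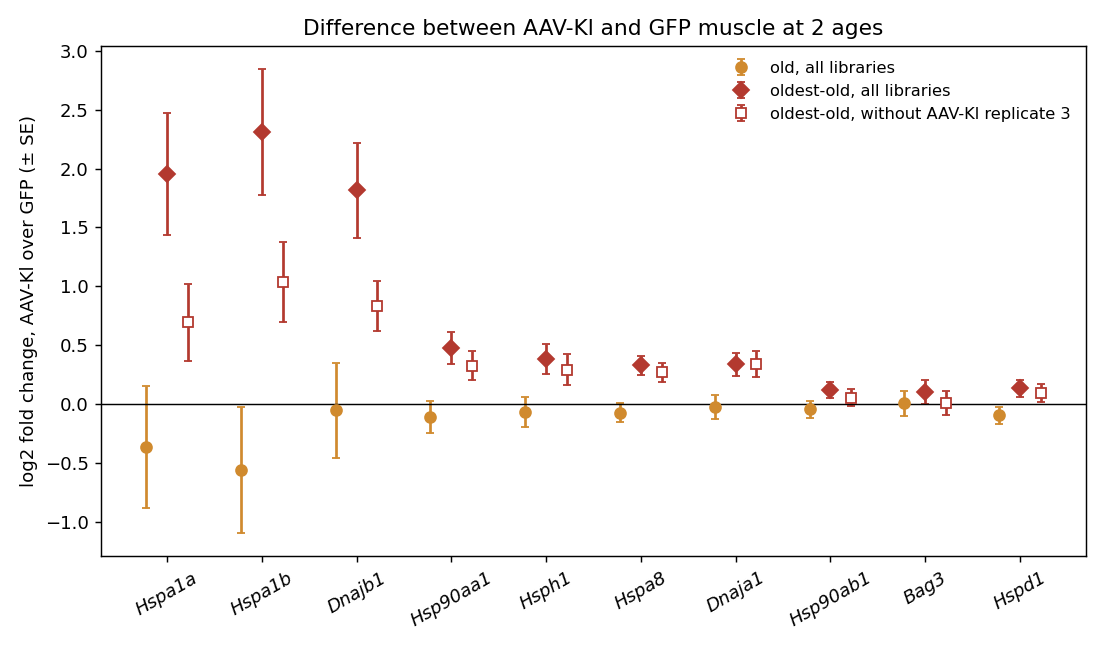
Log2 fold change of AAV-Kl over GFP muscle (y axis; bars are the standard error of the edgeR fit) for each gene in old mice (circles), in oldest-old mice (diamonds) and in oldest-old mice without AAV-Kl replicate 3 (open squares). Hspa1a, Hspa1b and Dnajb1 drop from 1.95, 2.31 and 1.81 to 0.69, 1.03 and 0.83 without that library, while Dnaja1 is at 0.33 with and 0.34 without it, and at 0.21 without oldest-old GFP replicate 4, which is not drawn.

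Across the 10 genes, the median log2 fold change with AAV-Kl was 0.36 in oldest-old and -0.07 in old mice, beside 0.01 and 0.01 over all 17803 genes. Groups did not overlap for 2 members in oldest-old mice, Hspa8 and Dnaja1, both higher, where 1.30% of all genes did not overlap in that direction and 1.35% in the lower one. In old mice no member was without overlap, against 0.826% of all genes higher and 0.854% lower. These shares describe the contrast by which the genes were chosen. With 1 library left out fewer values have to separate, and the shares of all genes are larger. The members without overlap, all higher, were then 7 without oldest-old GFP replicate 1 (3.16% of all genes higher, 3.10% lower), 5 without AAV-Kl replicate 1 (2.11% and 2.35%) and 4 without AAV-Kl replicate 4 (3.13% and 2.63%). Under the other 5 omissions they were 2 or 3, among them 2 without AAV-Kl replicate 3 (2.63% and 2.89%).

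The response in oldest-old mice exceeded that in old mice by 2.87 ± 0.75 on the log2 scale for Hspa1b, by 2.32 ± 0.73 for Hspa1a and by 1.87 ± 0.57 for Dnajb1. The difference of the responses was between 0.36 and 0.58 for Hsp90aa1 (0.58 ± 0.19), Hsph1 (0.45 ± 0.18), Hspa8 (0.40 ± 0.11) and Dnaja1 (0.36 ± 0.14). It was smallest for Hspd1 (0.23 ± 0.10), Hsp90ab1 (0.16 ± 0.10) and Bag3 (0.10 ± 0.15). Without oldest-old AAV-Kl replicate 3, these values became 1.59 ± 0.47 for Hspa1b, 1.06 ± 0.45 for Hspa1a and 0.88 ± 0.29 for Dnajb1, and 9 of the 10 remained above 0, with Bag3 at -0.00015 ± 0.14. The median over the members went from 0.43 to 0.36.

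Oldest-old AAV-Kl replicate 3 was compared with the other 3 libraries of its group on the log2 CPM scale. Hspa1b was 7.05-fold higher in it, Hspa1a 6.85-fold and Dnajb1 5.12-fold, at ranks 6, 8 and 18 of the 17803 genes. Hsp90aa1 was 1.45-fold higher, Hsph1 and Bag3 were each 1.28-fold higher, while Dnaja1 had a log2 difference of 0.0031. Of all 17803 genes, 320 (1.80%) were more than 2-fold higher in this library and 1306 were more than 2-fold lower. Among the other lists, the 7 small heat shock proteins, which hold unfolding proteins in a refoldable state, had a median log2 difference of 0.50, with Hspb1 highest at 0.90 and Hspb2 lowest at -0.01. Hspb1 was at 207 CPM in AAV-Kl replicate 3, but also at 171 CPM in oldest-old GFP replicate 1. That GFP library held 6.35 CPM of Hspa1a and 7.49 CPM of Dnajb1, far below AAV-Kl replicate 3. Of 17 immediate early genes, transcription factors and related genes that respond within minutes to a stimulus, 4 were more than 2-fold higher in AAV-Kl replicate 3, led by Atf3 (log2 difference 2.20). The median was 0.21 for the TRiC chaperonin, which folds actin and tubulin, 0.15 for 28 other HSF1 targets and cytosolic co-chaperones, and 0.08 for 19 chaperones and stress genes of the endoplasmic reticulum. Both cold-inducible RNA-binding proteins were lower, with Rbm3 at -0.34 and Cirbp at -0.10. Depth (51026009 reads on genes) and keratinocyte and hepatocyte markers (5.31 and 6.63 CPM, with 5 of 10 and 9 of 20 genes at 0) of this library were within the range of its group. Its mitochondrial share of 16.5% of reads and its multimapping share of 12.2% were the highest of the group, by a small margin over the 16.2% and 11.8% of the next library. Its tendon fibroblast (76.7 CPM), Schwann cell (88.9 CPM) and macrophage markers (55.0 CPM) were the lowest of its group, where the other libraries held 160.6 to 216, 112 to 216 and 98.0 to 282 CPM. The part of these measures in the chaperone levels was not tested.

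**Figure D3:**
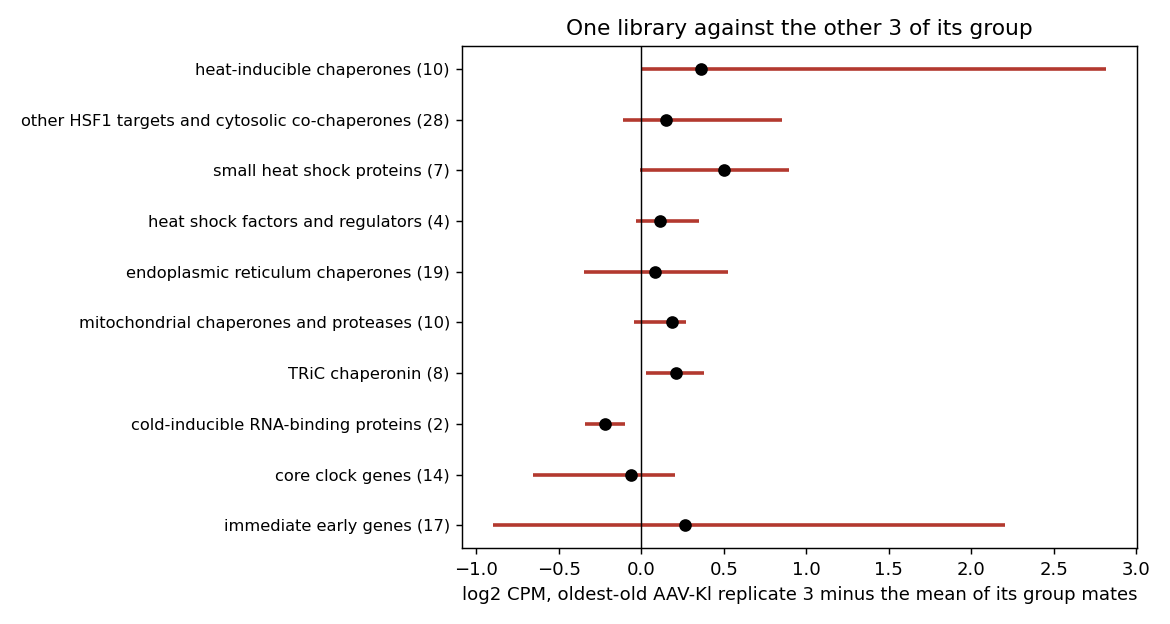
Log2 CPM of oldest-old AAV-Kl replicate 3 minus the mean of the other 3 libraries of its group (x axis) for 10 gene lists (number of genes in brackets); points are list medians and bars run from the lowest to the highest gene. The heat-inducible chaperones reach 2.82 and the immediate early genes 2.20, while no gene of the 8 other lists passes 1.

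With age, Hspa8, Dnaja1, Hsph1 and Hspd1 were lower in oldest-old than in young GFP muscle, and no member was called higher by edgeR. The question here is how chaperone levels differ with age in mice without added Klotho. These tests share their young, old and oldest-old GFP libraries with each other, and the latter 2 groups also served as controls of the Klotho comparisons. Low oldest-old GFP values raise the Klotho response for which the genes were chosen and lower their age difference, so the lower values with age in oldest-old mice are not independent of the choice. Between oldest-old and young GFP muscle, 4 members were called at an adjusted p under 0.05 (edgeR quasi-likelihood test, Benjamini-Hochberg over 17803 genes), all lower, where 14.9% of all genes were called and 6.08% were called lower. At an unadjusted p under 0.05, the criterion of the study for differential expression, the number was also 4, against 29.8% of all genes. The median log2 fold change was -0.05 over the members and 0.03 over all genes.

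Hspa8 was at 1207, 1001, 1192 and 1258 CPM in young GFP replicates 1 to 4, each above all of the oldest-old GFP libraries, whose highest held 988 CPM. It fell by 0.44 ± 0.08 on the log2 scale (1.35-fold; edgeR adjusted p = 0.00157). Dnaja1 was at 47.3, 39.0, 43.4 and 38.5 CPM in young GFP and at most at 37.0 CPM in oldest-old GFP muscle, again without overlap, and fell by 0.40 ± 0.10 (edgeR adjusted p = 0.0106). In both genes the highest oldest-old library was replicate 1.

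Hsph1 ran from 65.7 to 88.1 CPM in young GFP and from 53.9 to 76.5 CPM in oldest-old GFP muscle, and fell by 0.39 ± 0.13 (edgeR adjusted p = 0.0416) with overlapping groups. Hspd1 ran from 161 to 182 CPM in young and from 124 to 172 CPM in oldest-old GFP muscle, and fell by 0.24 ± 0.07 (edgeR adjusted p = 0.02998). Both calls were close to the threshold and were lost in the fit without the sham group (edgeR adjusted p = 0.0640 for Hsph1 and 0.0501 for Hspd1). The other 6 members did not pass the test, with log2 fold changes of 0.56 ± 0.52 for Hspa1a, 0.16 ± 0.10 for Bag3, 0.09 ± 0.07 for Hsp90ab1, 0.04 ± 0.53 for Hspa1b, -0.02 ± 0.40 for Dnajb1 and -0.09 ± 0.14 for Hsp90aa1. The standard errors of Hspa1a, Hspa1b and Dnajb1 were 0.40 to 0.53, against 0.07 to 0.14 for the other members. A change of the size seen for Hspa8 was therefore not detectable in them in this fit. The fit shares its estimate of spread over all 24 libraries, including oldest-old AAV-Kl replicate 3. Without that library, errors between old AAV-Kl and old GFP muscle fell from 0.52 to 0.31 for Hspa1a. They fell from 0.54 to 0.33 for Hspa1b and from 0.40 to 0.20 for Dnajb1. The errors with age without that library are not given here.

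Between old and young GFP muscle edgeR called no member at an adjusted p under 0.05, where 4.70% of all genes were called. DESeq2 called 1, Hspa8 (DESeq2 adjusted p = 0.0403), and the edgeR fit of the compared groups alone called 1, Dnaja1 (adjusted p = 0.0408). The share of all genes called was not taken for these alternatives. In the fit of all groups 3 were at an unadjusted p under 0.05, against 19.1% of all genes. These were Hspa8 (log2 fold change -0.23 ± 0.08, edgeR adjusted p = 0.105), Dnaja1 (-0.27 ± 0.10, adjusted p = 0.139) and Hspd1 (-0.15 ± 0.07, adjusted p = 0.256). Between oldest-old and old GFP muscle again no member was called, beside 0.00562% of all genes, and Hspa8 alone was at an unadjusted p under 0.05 (-0.20 ± 0.08, edgeR adjusted p = 0.354), against 12% of all genes (2136 of 17803). The mean of Hspa8 in old GFP mice was intermediate, at 990.1 ± 46.9 CPM between 1165 ± 113 in young and 861 ± 99.1 in oldest-old GFP muscle.

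Young GFP and young sham muscle share no library with the Klotho comparison. No member was called between them by edgeR at an adjusted p under 0.05, where edgeR called 0.472% of all genes. DESeq2 called 1 member, Hspa8 (DESeq2 adjusted p = 0.00789), but the share of all genes that DESeq2 called was not taken. At an unadjusted p under 0.05 edgeR had 2, against 13.4% of all genes. Hspa8 was at 899, 927, 953 and 1006 CPM in sham replicates 1 to 4 with a log2 fold change in young GFP muscle of 0.30 ± 0.08 (edgeR adjusted p = 0.107), its groups overlapping through young GFP replicate 2. Bag3 was at 165, 158, 157 and 180.0 CPM in sham and at 206, 189, 188 and 218 CPM in young GFP muscle, without overlap (0.28 ± 0.10, edgeR adjusted p = 0.252). Hspd1 likewise did not overlap, at 153 to 156 CPM in sham and 161 to 182 CPM in young GFP muscle (0.15 ± 0.07, adjusted p = 0.382). Of all genes called at an unadjusted p under 0.05 in this comparison 35.8% were higher in GFP with TMM scaling and 47.1% with median-of-ratios scaling, and of those at an adjusted p under 0.05 the shares were 59.5% and 71.8%. Under either scaling 8 of the 10 members had a fold change above 0.

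The members called with age depended on which young group was used. Against young sham, 2 members were called in oldest-old GFP muscle, where 11.6% of all genes were. Dnaja1, at 43.2 to 45.5 CPM in sham, was lower by either reference and fell by 0.49 ± 0.10 against sham (edgeR adjusted p = 0.00415). Bag3 was higher by 0.45 ± 0.10 (edgeR adjusted p = 0.00994). Hspa8 was at -0.14 ± 0.08 (adjusted p = 0.268), Hsph1 at -0.28 ± 0.13 (adjusted p = 0.145) and Hspd1 at -0.09 ± 0.07 (adjusted p = 0.407), each short of the threshold. In old GFP muscle against sham, 1 member was called, Bag3 (0.38 ± 0.10, edgeR adjusted p = 0.0442), with 3.67% of all genes called. The sham comparison was added after the young groups had been seen to differ.

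**Figure D4:**
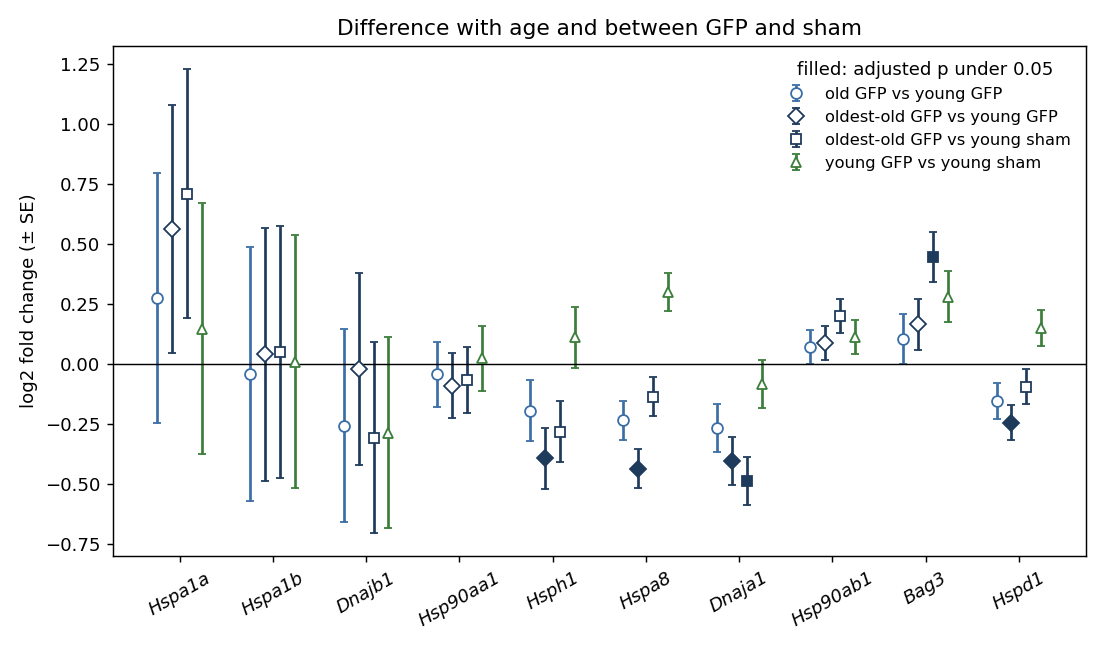
Log2 fold change (y axis; bars are the standard error of the edgeR fit) of each gene for old GFP over young GFP (circles), oldest-old GFP over young GFP (diamonds), oldest-old GFP over young sham (squares) and young GFP over young sham (triangles); filled symbols are at an adjusted p under 0.05. Hspa8 falls by 0.44 against young GFP but is at -0.14 against sham, while Dnaja1 is low against both.

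Other transcripts also differed between young GFP and oldest-old GFP muscle. The summed skeletal muscle fiber markers were 170049 to 196610 CPM in young GFP and 130425 to 167315 CPM in oldest-old GFP libraries. Macrophage markers were at 56.9 to 93.9 and 107 to 170.2 CPM, and endothelial markers at 206 to 232 and 239.5 to 276 CPM, each without overlap. In young sham libraries these sums were 147679 to 190353, 96.0 to 184 and 239.4 to 259.9 CPM, each overlapping oldest-old GFP muscle. The part of these markers in the Hspa8, Dnaja1, Hsph1 and Hspd1 differences was not tested. When the 5 libraries with keratinocyte or hepatocyte markers above 10 times the median were left out, a choice made after seeing the data, 1 member remained called between oldest-old and young GFP muscle, Hspa8 (log2 fold change -0.42, edgeR adjusted p = 0.0427). Dnaja1 was then at -0.31 (adjusted p = 0.173), with 2 young GFP libraries left.

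Among 28 other HSF1 targets and cytosolic co-chaperones, 7 were called lower and 2 higher in oldest-old than in young GFP muscle, with a median log2 fold change of -0.08. Of all 17803 genes, 1082 (6.08%) were called lower and 1567 higher in this comparison. Cacybp (-0.39, edgeR adjusted p = 0.0102), Hspe1, the Hsp10 partner of Hspd1 (-0.36, adjusted p = 0.00144), and the Hsp90 co-chaperone Stip1 (-0.29, adjusted p = 0.0196) were among the lower ones, and Hspa2, a further Hsp70 (1.13, adjusted p = 0.000346), and Dnajb6 (0.31, adjusted p = 0.0114) were the higher ones. Bag2 (-0.40) and Hmox1 (0.66) did not pass. Against young sham, none of the 28 was called lower and 4 were called higher, so these co-chaperones, like Hspa8, stood differently against either young group. In either direction, 11.6% of all genes were called against young sham.

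Small heat shock proteins had the opposite direction from Hspa8. Of the 7, Hspb7 (0.92, edgeR adjusted p = 0.0142), Hspb8, which acts with Bag3 (0.70, adjusted p = 0.00168), the lens and muscle protein Cryab (0.63, adjusted p = 0.0143) and Hspb6 (0.57, adjusted p = 0.0256) were higher in oldest-old than in young GFP muscle. Hspb2 (0.10) and Hspb3 (0.08) did not pass. Against young sham 5 were called higher and none lower. Of all 17803 genes, 1567 were called higher against young GFP, and 11.6% were called in either direction against young sham. Among the heat shock factors, Hsf4 (0.70, edgeR adjusted p = 0.00135) and Hsf2 (0.48, adjusted p = 0.00697) were higher, while Hsf1 (0.01, adjusted p = 0.966) and Hsbp1 (-0.12, adjusted p = 0.0745) did not pass.

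The remaining lists are given for oldest-old against young GFP muscle, where 14.9% of all 17803 genes were called, 1567 higher and 1082 lower. None of 10 mitochondrial chaperones and proteases was called by edgeR between oldest-old and young GFP muscle, with Hspa9, the mitochondrial Hsp70 (-0.14), and Trap1, the mitochondrial Hsp90 (-0.09), lowest and the exchange factors Grpel1 (0.04) and Grpel2 (0.02) highest. In the TRiC chaperonin Cct6a alone was called (-0.20, edgeR adjusted p = 0.0316), with Cct5 next at -0.12 and Cct8 (0.03) and Cct3 (0.02) highest. In the endoplasmic reticulum list Serpinh1, the collagen chaperone, was lower (-0.75, edgeR adjusted p = 0.0302) and Ddit3 higher (0.45, adjusted p = 0.0444), while Dnajb9 (-0.17) and Sdf2l1 (0.24) did not pass. Cirbp was higher (0.61, edgeR adjusted p = 0.0122) and Rbm3 did not pass (0.10). None of 14 core clock genes was called by edgeR, with Bhlhe41 (-0.45) and Per2 (-0.41) lowest and Npas2 (0.63) and Cry2 (0.30) highest. Of the 17 immediate early genes, 12 were called higher and none lower, with a median log2 fold change of 1.46, Fos (4.28) and Egr3 (3.84) being highest and Maff (-0.37) and Klf4 (0.35) lowest.

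With AAV-Kl, the other chaperone lists had smaller medians in oldest-old mice than the 10 members. The members were chosen with their Klotho response known, so this order is a description only. In oldest-old mice the median log2 fold change was 0.12 over the 28 co-chaperones, 21 of them above 0, and 0.05 with 18 above 0 without AAV-Kl replicate 3. The highest were Bag2 (0.30) and Hmox1 (0.30) and the lowest Bag5 (-0.14), of which Hmox1 was at 0.09 without AAV-Kl replicate 2 or 3, and Bag2 at 0.09 and Bag5 at -0.07 without GFP replicate 4. Over the small heat shock proteins the median was 0.16, and -0.02 without that library, with Hspb8 (0.35) and Hspb3 (0.20) highest and Hspb7 (-0.06) and Hspb6 (-0.06) lowest. Hspb8 was at 0.21 without AAV-Kl replicate 3 and Hspb3 at 0.05 without GFP replicate 4, while Hspb6 and Hspb7 changed sign among the omissions of 1 library. In old mice these medians were -0.02 and -0.07. Groups did not overlap for Dnajb2 (0.25, higher) in oldest-old mice, for Cct5 (0.08, higher) in oldest-old mice and for Fkbp4 (-0.09, lower) in old mice, and for no other listed gene outside the members. Over all genes, 1.30% were without overlap and higher in oldest-old mice, and 0.854% without overlap and lower in old mice. Medians were 0.07 for TRiC, 0.08 for the endoplasmic reticulum list, 0.04 for the mitochondrial list, -0.05 for the heat shock factors and 0.01 for the clock genes in oldest-old mice. The immediate early genes had a median of -0.35 in oldest-old and -0.29 in old mice, with Atf3 at 1.74 ± 0.55 and Ier2 at -1.003 ± 0.33 in the former. Atf3 was at 26.1, 47.9, 179 and 47.1 CPM in oldest-old AAV-Kl replicates 1 to 4, with replicate 3 highest, as for Hspa1a. Without that replicate the log2 fold change of Atf3 was 0.85. Cirbp was at -0.58 ± 0.15 and Rbm3 at -0.34 ± 0.20 in oldest-old mice, and at -0.36 and -0.04 without oldest-old GFP replicate 4, which held the most of both (33.6 and 51.4 CPM).

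The members did not all vary together. Over 24 libraries, Pearson's r of log2 CPM was 0.95 between Hspa1a and Hspa1b, 0.91 between Hspa1b and Dnajb1 and 0.89 between Hspa1b and Hsp90aa1, and without oldest-old AAV-Kl replicate 3 these were 0.85, 0.75 and 0.81. High values also joined Hspa8 with Hsph1 (0.79, and 0.75 without that library), Hspa8 with Hspd1 (0.78 and 0.76) and Hsph1 with Hspd1 (0.77 and 0.75), and Hsph1 with Hsp90aa1 (0.72 and 0.66) linked these genes to the former. Hsp90ab1 and Dnaja1 were opposed (-0.44 and -0.61). Oldest-old GFP replicate 4 was at rank 2 of 24 for Hsp90ab1 (1481 CPM) and at rank 24 for Dnaja1 (23.1 CPM). The r of this pair without that library was not taken. Libraries share groups, depth scaling and, for Hspa1a and Hspa1b, sequence, so these values are a description.

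Genes most like the 10 members were found by the correlation of their log2 CPM with the mean z-score of the members over 24 libraries. The 10 highest were Mterf3 (r = 0.85), Ptges3 (0.84), Jmjd6 (0.83), Dnajb4 (0.83), Prdx1 (0.82), Cct3 (0.80), Mrps2 (0.80), Narfl (0.79), Klc1 (0.78) and Mrpl46 (0.78). Ptges3 encodes the Hsp90 co-chaperone p23, Dnajb4 a J-domain protein and Cct3 a subunit of TRiC. Without oldest-old AAV-Kl replicate 3 their r was 0.53 to 0.72, and Mrps2 and Ptges3 alone were among the 10 highest over those 23 libraries. After subtraction of group means, Mterf3 (0.93), Ankrd49 (0.90), Hspb1 (0.89), Dnajb4 (0.85), G3bp1 (0.84), Ptges3 (0.84), Pum3 (0.83), Nipal3 (0.83), Narfl (0.82) and Fhl2 (0.82) led. Over 23 libraries without oldest-old AAV-Kl replicate 3, with group means kept, the r of these genes was 0.43 to 0.71, lowest for Fhl2 (0.43), Ankrd49 (0.44), Pum3 (0.45), Nipal3 (0.48) and Hspb1 (0.48).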

How the data were processed

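Gastrocnemius RNA of 24 libraries, 4 in each of 6 groups, was analysed. The authors aligned reads to GRCm38/mm10 with STAR 2.7.0a and deposited raw read counts per gene and library; the annotation used for counting is not given in the sources used here. Unstranded counts were taken, since the first strand column held 49.8% to 50.4% of stranded reads. Between 74.7% and 77.0% of reads fell on genes; multimapping (9.78% to 12.2%), ambiguous (5.36% to 5.90%) and no-feature reads (2.52% to 3.52%) stayed out. Gene symbols were matched for 55144 of 55385 identifiers, and 54487 identifiers are in GENCODE M21, which gave positions and exon lengths. Promoters came from RefSeq.

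Counts were scaled by TMM, filtered with filterByExpr and fitted with edgeR 4.0.16 (R 4.3.3), in a quasi-likelihood model with 1 mean per group over all 24 libraries. Calls were made at a Benjamini-Hochberg adjusted p under 0.05 over all 17803 genes tested. The standard error was derived from the fold change and its F statistic. Named genes were all members, the 2 highest and 2 lowest genes of a list described and those called where a list had 5 or fewer (1 such gene is not reported here), with a few chosen after their values were seen (Stip1, Hspe1, Hspb1, Dnajb2, Cct5, Fkbp4). The members and lists were chosen with earlier results of these data known. DESeq2 1.42.0, which the authors used, other scaling, filters and fits were alternatives. The other lists and the levels per exon length without single oldest-old libraries were chosen after seeing the data. The fit was tested on simulated data. Same-numbered libraries did not deviate together between old GFP and old AAV-Kl (mean correlation 0.01), nor between oldest-old GFP and AAV-Kl (-0.16), so no pairing was used. Precision is limited by 4 libraries per group, and intervals cover the spread between these libraries.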

Additional observations from a re-analysis of the deposited data

Results flagged for a closer look

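Within a group of 4 libraries, 8 values lay farther from the other 3 than Dixon's 95% critical value allows, of 60 groups of a gene and a condition examined. For independent values about 1 in 20 would do so. Several members vary together and all were chosen with the Klotho response known, so the number is a description and not a test. Of these, 4 were in oldest-old AAV-Kl replicate 3, which was high in Hspa1a (45.8 CPM), Hspa1b (63.7 CPM), Dnajb1 (71.8 CPM) and Hspd1 (172 CPM). In oldest-old GFP muscle, Hsp90aa1 was high in replicate 1 (60.6 CPM) and Hsp90ab1 in replicate 4 (1481 CPM). In old AAV-Kl muscle, Hsp90ab1 was high in replicate 3 (1283 CPM) and Dnajb1 was low in replicate 1 (5.57 CPM).

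For Hspa1b and Hspa8, every oldest-old AAV-Kl library lay above the mean of oldest-old GFP muscle and every old AAV-Kl library below the mean of old GFP muscle. The responses differed by 2.87 on the log2 scale for Hspa1b and by 0.40 for Hspa8; this difference was not tested, since the genes were chosen with it known.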

How the results depend on the processing

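For 55 values per gene or median, 936 of 984 recomputations kept direction and side of the threshold, or moved by less than the spread between libraries; for 7 counts of members, 100 of 121 stayed within 1.5 times. The members called between oldest-old and young GFP muscle, 4 in all, were 2 without a filter on low counts, 2 without the sham group in the fit, 1 in a fit of these groups alone, 1 without the libraries high in keratinocyte or hepatocyte genes, 2 against young sham, and 2 to 4 with 1 library left out. Between old and young GFP muscle, 0 became 1 in the fit of the groups alone (Dnaja1), with DESeq2 (Hspa8) and against young sham (Bag3), and 0 to 1 with 1 library left out; between young GFP and sham 0 became 1 with DESeq2. Hspa8 in oldest-old against young GFP muscle had adjusted p of 1.20e-06 to 0.0384 over planned settings and 0.000606 to 0.00678 with 1 library left out; Dnaja1 had 0.00108 to 0.0997 and 0.00519 to 0.0375. Hsph1 lost its call in 6 and Hspd1 in 5 of 8 omissions.

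Of members above 0 with AAV-Kl in old mice (1 in all) there were 0 with the replicate block, 2 without the libraries of other tissues and 0 to 3 with 1 library left out; in oldest-old mice there were 10 under each setting run, and no member was called between oldest-old and old GFP muscle under any. The replicate block also lost Hsph1 between oldest-old and young GFP muscle (adjusted p = 0.0504), leaving 3 called, and changed no other count; these libraries share only a number. Directions that turned were all of values that were not called: between oldest-old and young GFP muscle, Hspa1b ran from -0.26 (without GFP replicate 1 of the oldest-old) through -0.10 and -0.08 (without young GFP replicates 4 and 2) to 0.25, Hsp90ab1 from -0.0041 to 0.11, and Dnajb1 from -0.16 to 0.12. Without the libraries of other tissues Hsp90aa1 was at 0.042 and Dnajb1 at 0.16, and against sham Hspa8 in old GFP muscle was at 0.065. Leaving out oldest-old GFP replicate 1 took the members' median between oldest-old and young GFP muscle from -0.05 to -0.24. The causes were not tested.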
